A study of Mus musculus with 47 samples.

Results

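A set of 28 mouse genes was low in 3 untreated groups of cells and present in neural progenitors treated with auxin to deplete SUZ12. The set was selected on the measured values themselves: mean TPM under 1 in untreated untagged embryonic stem cells (ESCs), untreated untagged neural progenitor cells (NPCs) and untreated SUZ12-degron NPCs, and at least 5 TPM in both libraries of SUZ12-degron NPCs grown with auxin. Of 35856 gene symbols, 20138 met the first condition, 10979 met the second and 30 met both; Hox genes, predicted genes and other unnamed symbols were set aside, which removed Hoxc9 and Gm11837 and left 28. TPM is a unit of transcript abundance, scaled by gene length and by the total of the library, so that every library sums to 1000000. Because the same values chose the genes, their rise in SUZ12-degron NPCs is described below without a test.

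The study compared 4 C57BL/6 mouse ESC lines, all carrying the auxin receptor Tir1, in 47 libraries of polyadenylated RNA and 16 groups. 1 line was untagged (Tir1 only); in the others SUZ12, MTF2 or JARID2 carried an auxin-inducible degron (AID), a tag that lets auxin trigger loss of the protein. Each line was sampled as ESCs, untreated or after 12 hours of auxin (indole-3-acetic acid, 50 µM), and as NPCs, untreated or with auxin for 5 days of differentiation with bFGF at 10 ng/mL and then the Sonic hedgehog agonist SAG at 500 nM. Every group had 3 biological replicates, except the SUZ12-degron NPCs with auxin, which had 2. ESCs were kept without serum, with leukemia inhibitory factor and the inhibitors CHIR99021 and PD0325901. For MTF2-degron and JARID2-degron NPCs the sample titles give day 0 although the remaining labels give NPCs and 5 days, which was followed. Each tagged line is a line of its own, so the tag and the line cannot be told apart in comparisons between lines. Protein was not measured, and Suz12 mRNA does not show its loss: it stood at 77.8 ± 1.5 TPM (SD, n = 3) in untreated SUZ12-degron NPCs and at 160 and 167 TPM with auxin.

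Polycomb repressive complex 2 (PRC2) methylates histone H3 on lysine 27 and keeps developmental genes silent in cell types where they are not used. SUZ12 is a core subunit without which the complex is unstable, whereas MTF2 and JARID2 are accessory subunits that belong to alternative forms of the complex and help bring it to its targets. In ESCs and neural progenitors, transcription factors and signals of other lineages are well-known PRC2 targets.

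The set spans several functions. Among the 28 genes, 7 encode transcription factors (among them Osr1, Foxe1, Gata6, Alx1, Prrx1 and Fli1), 5 encode secreted signals or their modulators (Wnt6, Rspo3, Adm, Wisp1 and Igfbp6) and 4 encode matrix proteins (Smoc2, Hapln1, Tnc and Ccdc80). Another 3 are induced by interferon (Gbp2, Psmb8 and Cxcl10), 5 encode membrane or junction proteins (among them Tmprss2, Cldn11, Vnn1 and Gfra3), and the other 4 are Cyp1b1, Arap3, Tnnt3 and Hba-a1. All 27 genes that could be matched by symbol to the GENCODE M21 annotation of GRCm38 (mm10) are protein coding; Wisp1 was not matched. They lie on 15 chromosomes, and 0 pairs lie within 1 Mb of each other, so the set is not a local gene cluster. A list of 92 developmental regulators commonly named as Polycomb targets holds 6 of the 28, among them Alx1, Foxe1, Gata6, Osr1 and Wnt6. The list was written with results of these data known.

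Promoter sequences are shown for the 3 interferon-inducible genes, which with Arap3 and Tnnt3 came nearest in JARID2-degron NPCs to their SUZ12 level, and for Cyp1b1, which also differed between auxin and untreated ESCs. Each is the 250 bases before the RefSeq start on GRCm38.p6, read 5′ to 3′ on the gene's strand: Gbp2 chr3:142620413-142620662 (plus), Cxcl10 chr5:92348890-92349139 (minus), Psmb8 chr17:34197945-34198194 (plus) and Cyp1b1 chr17:79715062-79715311 (minus). GENCODE starts Gbp2 and Psmb8 at 142620602 and 34197721, within or before those windows, so the windows overlap its gene models. Capitals mark a match on either strand to the interferon-stimulated response element (GAAA, any 2 bases, GAAA) in Gbp2 and Cxcl10, to the interferon-gamma-activated site TTCNNNGAA in Psmb8, and to the dioxin response core GCGTG in Cyp1b1.
Gbp2: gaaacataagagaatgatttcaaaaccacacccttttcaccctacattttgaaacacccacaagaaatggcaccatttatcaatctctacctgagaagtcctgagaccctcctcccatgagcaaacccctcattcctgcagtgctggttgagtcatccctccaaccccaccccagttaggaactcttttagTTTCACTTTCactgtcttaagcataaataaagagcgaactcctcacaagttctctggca
Cxcl10: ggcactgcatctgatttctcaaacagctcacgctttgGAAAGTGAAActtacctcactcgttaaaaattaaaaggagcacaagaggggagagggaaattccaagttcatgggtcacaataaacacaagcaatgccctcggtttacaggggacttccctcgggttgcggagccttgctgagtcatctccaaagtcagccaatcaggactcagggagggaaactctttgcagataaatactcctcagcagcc
Psmb8: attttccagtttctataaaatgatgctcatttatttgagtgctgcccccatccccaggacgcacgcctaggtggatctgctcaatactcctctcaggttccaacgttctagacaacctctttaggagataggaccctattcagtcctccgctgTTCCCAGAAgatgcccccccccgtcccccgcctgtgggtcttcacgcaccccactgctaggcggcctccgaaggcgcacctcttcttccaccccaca
Cyp1b1: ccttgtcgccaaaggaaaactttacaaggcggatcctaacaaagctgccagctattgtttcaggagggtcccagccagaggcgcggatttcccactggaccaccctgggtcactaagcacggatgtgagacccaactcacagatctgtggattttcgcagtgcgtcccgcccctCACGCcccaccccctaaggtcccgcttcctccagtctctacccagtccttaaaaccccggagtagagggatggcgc
The response element lies 59 to 50 bases before the start of Gbp2 and 213 to 204 before that of Cxcl10, and these letters are not in the Psmb8 window, whose marked site lies 97 to 89 bases before the start. The dioxin response core is marked only in Cyp1b1, at 76 to 72 bases before the start, and is also in the windows of Adm, Cxcl10, Hba-a1, Osr1, Psmb8 and Wnt6. Over 32841 RefSeq promoter windows of the same length, 2.98% held the interferon-stimulated response element on either strand, 7.02% held TTCNNNGAA and 28.2% held GCGTG. A match is a description of letters and not evidence of binding. Windows were at hand for 14 of the 28 genes, which is under 80%, so base composition over the set was not compared.

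In SUZ12-degron NPCs with auxin, transcription factors and matrix proteins gave the most RNA. Osr1, a zinc-finger regulator of intermediate mesoderm and kidney, was highest at 55.1 and 46.2 TPM, against 0.505, 0.581 and 1.22 TPM in the 3 untreated libraries. It was followed by Smoc2, a secreted calcium-binding matrix protein, at 25.2 and 23.6 TPM against 0.117, 0.135 and 0.365. Hapln1, the link protein that ties hyaluronan to proteoglycans, stood at 25.3 and 23.3 TPM against 0.328, 0.0754 and 0.136. In all 3 genes both auxin libraries were far above every untreated one, as the selection required. On the ratio of means these were 65.9-fold (Osr1), 118-fold (Smoc2) and 135-fold (Hapln1), with 13, 5 and 8 reads in the untreated group, so the ratios are imprecise.

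**Figure D1:**
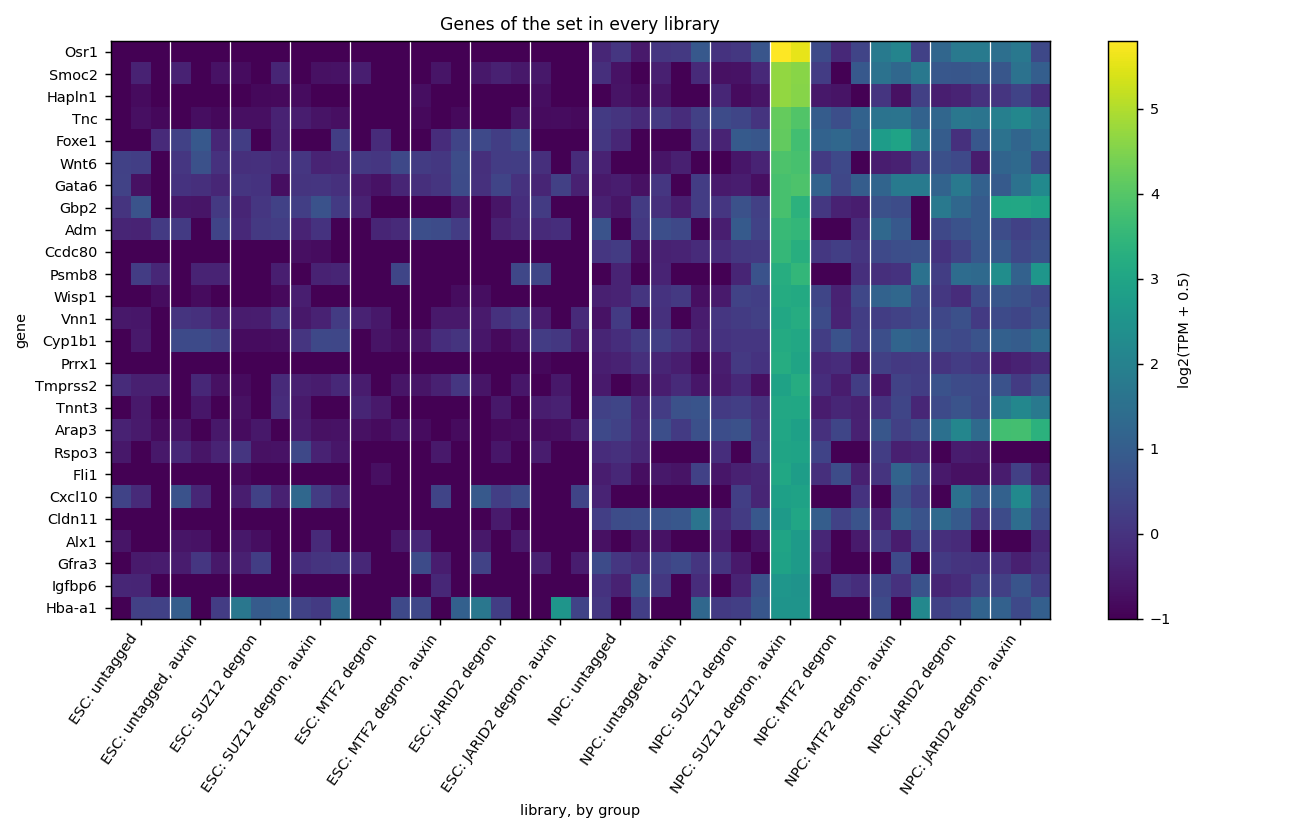
Each row is a gene, 26 of the 28 being drawn, ordered by mean TPM in SUZ12-degron NPCs with auxin, and each column is 1 of the 47 libraries; colour is log2(TPM + 0.5). The column pair of SUZ12-degron NPCs with auxin stands out in most rows, a pattern largely fixed by the selection. Arap3 is brighter in JARID2-degron NPCs with auxin, where Gbp2 is also bright. The ESC libraries on the left are dark, except for Hba-a1 in some, which reaches 5.3 TPM in a JARID2-degron library with auxin.

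The other transcription factors were lower. Foxe1, a forkhead factor of thyroid and foregut, reached 17.5 and 12.8 TPM against 0.303, 1.39 and 1.26. Gata6, which directs endoderm and heart development, reached 13.6 and 14.3 TPM against 0.204, 0.235 and 0.106. Alx1, a paired-type homeodomain factor of craniofacial mesenchyme, reached 7.34 and 6.05 TPM, with 3 reads in all in the untreated group. Prrx1, a homeodomain factor of limb and facial mesenchyme, reached 8.68 and 7.34 TPM, and Fli1, an ETS factor of blood and endothelium, 7.73 and 6.36 TPM.

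Secreted signals included 2 genes of the WNT pathway. The ligand Wnt6 was at 14.4 and 13.6 TPM, with 3 reads in all in the untreated group, and Rspo3, which amplifies WNT signalling at the receptor, was at 7.30 and 7.17 TPM against 0.423, 0 and 0.586. Adm, the precursor of the vasodilator peptide adrenomedullin, was at 11.5 and 10.9 TPM. Wisp1, a matricellular protein now also called Ccn4, was at 8.58 and 8.26 TPM, and Igfbp6, which binds insulin-like growth factors, at 5.49 and 5.11 TPM. The other matrix genes were Tnc (tenascin C), at 17.9 and 15.1 TPM against 0.964, 0.845 and 0.523, and Ccdc80, at 11.1 and 9.05 TPM.

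The interferon-inducible genes differed in their read support. Gbp2, a guanylate-binding protein, was at 13.6 and 9.84 TPM against 0.551, 1.11 and 0.715, and its 2 libraries stood 1.38-fold apart, the widest gap in the set. Psmb8, a catalytic subunit of the immunoproteasome, was at 8.86 and 10.8 TPM against 0, 0.318 and 1.15. Cxcl10, a chemokine, was at 6.81 and 6.98 TPM, which is 18 and 21 reads. Among membrane proteins, Tmprss2 (a serine protease), Vnn1 (a pantetheinase), Cldn11 (a tight-junction claudin) and Gfra3 (a receptor for artemin) had means of 7.90, 8.35, 6.82 and 6.57 TPM.

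Of the last 4 genes, the cytochrome P450 gene Cyp1b1 was at 8.49 and 7.99 TPM, Tnnt3, fast skeletal troponin T, at 7.94 and 7.80 TPM, and Arap3, a GTPase-activating protein, at 7.64 and 6.83 TPM. Hba-a1, an alpha globin gene, was at 5.22 and 5.24 TPM on 7 to 8 reads a library. Its near-identical copy Hba-a2 was at 1.95 and 6.66 TPM, so the share of each copy is uncertain. Many of the genes overlap an annotated gene or transcript model on the other strand, among them Osr1, Smoc2, Hapln1, Tnc, Foxe1, Wnt6, Gata6, Gbp2, Adm, Psmb8, Prrx1, Tnnt3, Rspo3, Fli1 and Cxcl10; the libraries mark strand, but whether the counting used it is not given in the sources used here.

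A threshold set the limits of the set. Just inside 5 TPM were Igfbp6 (5.494 and 5.109 TPM), Hba-a1 (5.217 and 5.236) and Cldn11 (6.009 and 7.622). Just outside were Plac9b (4.999 and 5.122), Col12a1 (6.880 and 4.792) and Cyp26a1 (4.711 and 5.910). Near 1 TPM, the highest mean of the 3 low groups was 0.985 TPM for Foxe1, 0.912 for Cldn11 and 0.882 for Arap3 just inside, and 1.01 for Svep1 and 1.07 for Zic1 just outside. Zic1 reached 20.37 and 19.05 TPM in the auxin libraries, more than many genes that were kept.

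The cultures in which the set was on also differed in markers of cell identity. Over NPC libraries, 20 neural progenitor markers summed to 2287 to 2290 TPM in SUZ12-degron cells with auxin and to 6514 to 6619 TPM untreated, with all 20 at a mean of 1 TPM or more in both. The progenitor factor Sox1 was at 82.5 to 94.1 TPM untreated and 10.7 to 12.0 TPM with auxin, and the pluripotency factor Pou5f1 at 6.81 to 8.63 and 339 to 344 TPM. Neuronal markers summed to 538 to 587 against 5340 to 5636 TPM, and pluripotency markers to 1714 to 1739 against 56.9 to 64.1 TPM. Sums also differed for mesoderm (387 to 400 against 53.1 to 56 TPM), epidermis (1224 to 1281 against 214 to 232), trophectoderm (1270 to 1349 against 291 to 313) and germ line (2008 to 2106 against 322 to 350). They were 604 to 633 against 157 to 214 TPM for smooth muscle and fibroblast, and 62.6 to 65.0 against 32.6 to 35.6 TPM for blood and endothelium. The blood and endothelium difference rests on Pecam1, at 32.1 to 33.5 TPM with auxin and 1.48 to 1.70 without. Pecam1 was also at 69.1 to 112 TPM in ESC libraries. In the same ESC libraries the germ line list summed to 1015 to 1380 TPM, epidermis to 372 to 564 and trophectoderm to 164 to 211. The epidermis and trophectoderm lists share Krt8 and Krt18, so their sums are not independent here or in the results that follow. Figla of the germ line list and Prl3d1 of the trophectoderm list were at 0 in SUZ12-degron NPCs with and without auxin. Of 16 blood and endothelium markers, 11 had a mean of 1 TPM or more with auxin and 4 without; 3 were at 0 in both auxin libraries (Ptprc, Spi1 and Hbb-bh1), of which Spi1 and Hbb-bh1 were also at 0 untreated. Of 20 mesoderm markers, 15 had 1 TPM or more with auxin and 10 without, and Evx1 and Mesp1 were at 0 with auxin. For heart and skeletal muscle the sums were 151 to 156 against 74.9 to 86.3 TPM, for extraembryonic endoderm 756 to 823 against 434 to 469, for definitive endoderm and gut 223 to 227 against 380 to 408, and for neural crest and dorsal neural tube 107 to 117 against 128 to 134. The part of these differences in the set's levels was not tested. In ESC libraries, where the pluripotency sum was 8582 to 9577 TPM, the 28 genes together gave 2.32 to 8.30 TPM. The selection itself required a mean under 1 TPM in untreated untagged ESCs, so nothing is read from these low ESC sums. RNA was taken from whole cultures, so more cells that use a gene and more RNA per cell cannot be told apart here or in the results that follow.

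The set stayed low in the untagged line with auxin, the control for the compound. Its 28 genes summed to 8.43 to 13.9 TPM there and to 8.45 to 12.0 TPM in untagged NPCs without auxin, against 317 and 343 TPM in SUZ12-degron NPCs with auxin and 9.58 to 16.1 TPM in those without. The largest untagged auxin mean was that of Cldn11, at 1.17, 1.29 and 2.57 TPM, and it overlapped none of the SUZ12 auxin values of 6.01 and 7.62. In 26 of the 28 genes both SUZ12 auxin libraries exceeded each of the other 45 libraries; the exceptions were Arap3 and Hba-a1. The SUZ12-degron NPC libraries and the untagged untreated libraries were used in the selection, so these levels carry no test. The count of 26 was largely fixed by that selection, and its share over all genes was not computed.

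In MTF2-degron NPCs part of the set was higher with auxin, at far lower levels than in the SUZ12 line, where the genes were chosen to be high. The 28 genes summed to 12.0 to 16.3 TPM untreated and 33.1 to 39.1 TPM with auxin. A gene's mean with auxin was a median of 9.84% of its SUZ12 auxin mean, with a range from 0% to 36.9% (Foxe1), and 26 of 28 were under 25%. Choosing genes that are high in the SUZ12 group by itself favours low percents, and the share over all genes was not computed. In all, 3 genes rose at an adjusted p under 0.05 in limma on log2(TPM + 0.5), among them the transcription factor Foxe1 and the matrix gene Smoc2, and 0 fell. Over the 16469 genes tested, 5.03% rose and 3.11% fell, or 828 and 512 genes; a median-of-ratios scaling gave 721 and 805. Summed by role, the 7 transcription factors were at 4.54 to 6.15 TPM untreated and reached at least 10.9 TPM in each auxin library, the 4 matrix genes were at 5.67 to 6.4 TPM with auxin and 1.89 to 3.60 without, and the 3 interferon-inducible genes at 1.55 to 3.09 and 0.290 to 1.18. Fitted without the SUZ12 NPC libraries, through which 6 of the 28 had passed the filter on low values, the same number of genes rose.

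Smoc2 was at 2.45, 1.92 and 2.82 TPM with auxin and 0.650, 0 and 1.34 TPM untreated, so that its groups did not overlap. The difference was 1.495 ± 0.36 (SE) on the log2(TPM + 0.5) scale, with a limma adjusted p of 0.012. Foxe1, at 6.32, 7.16 and 3.31 TPM against 1.68, 1.91 and 1.48 TPM, differed by 1.42 ± 0.37 with a limma adjusted p of 0.021. These levels rest on few reads, 9 to 13 for Smoc2 and 5 to 13 for Foxe1 in an auxin library. The Foxe1 call was lost with a pseudocount of 0.1 (adjusted p = 0.17) and on leaving out auxin replicate 1 or 2 or untreated replicate 1 or 3 (adjusted p 0.050 to 0.085). The Smoc2 call was lost with that pseudocount (adjusted p = 0.058), in a fit to the MTF2 groups only (0.10), and without auxin replicate 3 or untreated replicate 2 (0.053 to 0.081).

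**Figure D2:**
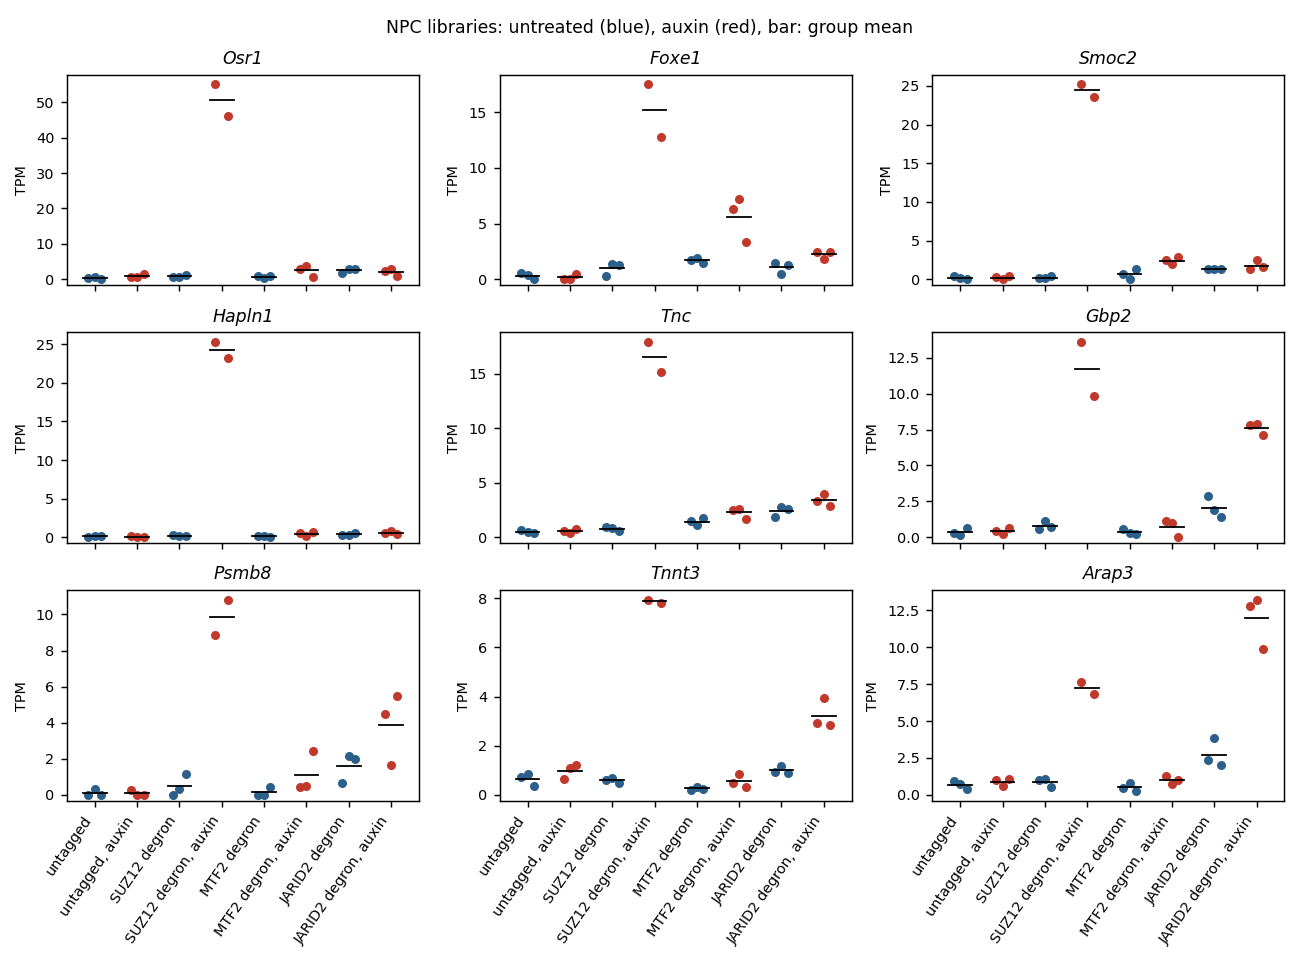
TPM of 9 genes in each NPC library; blue points are untreated, red points are with auxin, and bars are group means (n = 3, and n = 2 for SUZ12 with auxin). Outside the SUZ12 auxin group Osr1, Smoc2 and Hapln1 reach at most 3.67, 2.82 and 0.791 TPM. Foxe1 stands between in the MTF2 auxin group, and Arap3 is highest in the JARID2 auxin group at 9.89 to 13.2 TPM.

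The remaining MTF2 differences did not pass. The MTF2 difference of Osr1, the highest gene in the SUZ12 line, was the nearest to passing of the 10 highest: it was at 2.97, 3.67 and 0.735 TPM against 0.932, 0.354 and 0.824 TPM; the low auxin library lay within the untreated range, and the difference was 1.15 ± 0.39 with a limma adjusted p of 0.075. Hba-a1 had a larger estimate, 1.57 ± 0.61, with a limma adjusted p of 0.12. Hapln1 was at 0.526, 0.119 and 0.716 TPM with auxin. In the fit without the SUZ12 NPC libraries, the median difference was 0.60 over the 22 genes of the set tested there and 0.03 over all 15854 genes tested. Every auxin library lay above every untreated one for 8 of 28 genes (15.1% of all genes tested) and below for 0 (9.62% of all genes). The 8 include Prrx1, which passed the filter on low values only through the SUZ12 auxin libraries that chose it.

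With auxin in the JARID2-degron line, Arap3, Gbp2 and Tnnt3 were among the genes that rose. In JARID2-degron NPCs the set summed to 27.5 to 33.3 TPM untreated and 54.5 to 60.5 TPM with auxin. The auxin means were a median of 12.4% of the SUZ12 auxin means and ran from 0% (Rspo3) to 165% (Arap3), with 22 of 28 under 25%. Here too the choice of genes favours low percents, and the share over all genes was not computed. In all, 4 genes rose at an adjusted p under 0.05 and 0 fell, while 9.28% of all genes tested rose and 15.7% fell (1528 and 2588 genes; 2217 and 2198 with median-of-ratios scaling). Summed by role, the 3 interferon-inducible genes were at 13.8 to 14.0 TPM with auxin and 3.54 to 6.42 without, the transcription factors at 8.42 to 11.1 and 7.01 to 7.84, and the matrix genes at 5.91 to 8.09 and 3.88 to 5.71.

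Arap3 was at 12.8, 13.2 and 9.89 TPM with auxin and 2.34, 3.83 and 2.03 TPM untreated, and all 3 auxin libraries were above both SUZ12 auxin libraries. The change was 1.97 ± 0.26 on the log2 scale with a limma adjusted p of 6.7e-06, on 133 to 167 reads an auxin library. Gbp2 was at 7.84, 7.91 and 7.09 TPM against 2.86, 1.92 and 1.39 TPM, a change of 1.71 ± 0.35 with a limma adjusted p of 0.0011. Tnnt3 was at 2.91, 3.94 and 2.83 TPM against 0.937, 1.18 and 0.885 TPM, a change of 1.30 ± 0.23 with a limma adjusted p of 0.00025. These 3 genes kept their calls in all 15 alternatives tried for each.

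**Figure D3:**
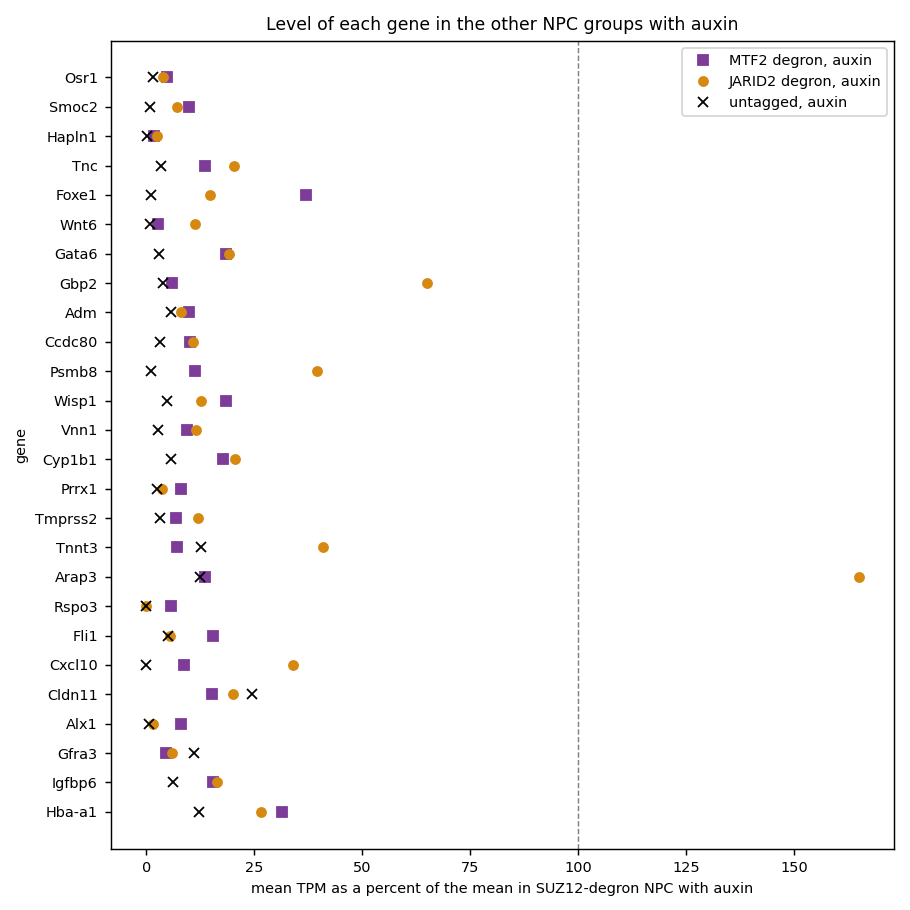
Mean TPM of 26 of the 28 genes in NPCs with auxin as a percent of each gene's mean in SUZ12-degron NPCs with auxin (dashed line, 100%), for the MTF2-degron (squares), JARID2-degron (circles) and untagged (crosses) lines. Most points lie under 25%, and Arap3 at 165% and Gbp2 at 65.0% in the JARID2 line are the farthest to the right. The genes were chosen for a high SUZ12 auxin level, which favours low percents.

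Other interferon-inducible genes were less certain in the JARID2 line. Psmb8 was at 4.50, 1.67 and 5.47 TPM with auxin and 0.676, 2.14 and 1.99 TPM untreated, so its groups overlapped and its difference of 1.02 ± 0.49 had a limma adjusted p of 0.14. Cxcl10 was at 1.67, 4.18 and 1.22 TPM against 0, 2.37 and 1.33 TPM, with a limma adjusted p of 0.24. A list of 40 interferon response genes, added once the set was known to include Gbp2, Psmb8 and Cxcl10, gives the surrounding values. Of its 28 tested genes outside the set, 13 rose and 0 fell with auxin in JARID2-degron NPCs. Over all genes tested, 9.28% rose and 15.7% fell there. The 28 had a median of 0.46, against -0.04 over all genes. Among them, named after their values were seen, Bst2, an antiviral membrane protein, changed by 1.48 ± 0.22 and the transcription factor Irf1 by 0.96 ± 0.17, with limma adjusted p of 5.7e-05 and 0.00021. In MTF2-degron NPCs 5 of the same 28 rose and 0 fell, with a median of 0.21 against 0.03. There 5.03% of all genes rose and 3.11% fell. The JARID2 effect exceeded the MTF2 effect for 3 of the 28 and was lower for 0 (1.82% and 7.82% of all genes). The median difference of effects was 0.11, against -0.08 over all genes. In untreated NPCs 10 of the 28 were higher in the JARID2 line than in the MTF2 line. A further 2 were lower (9.06% and 14% of all genes). The whole list summed to 529 to 544 TPM with auxin and 363 to 411 TPM without in JARID2-degron NPCs, and to 756 to 761 and 325 to 333 TPM in SUZ12-degron NPCs.

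The list of 92 Polycomb targets summed to 922 to 953 TPM in SUZ12-degron NPCs with auxin and 318 to 337 TPM without, the 6 genes of the set included. Of its 66 tested genes outside the set, 8 rose and 11 fell with auxin in JARID2-degron NPCs, where 9.28% of all genes rose and 15.7% fell (median 0.03, against -0.04 over all genes). In MTF2-degron NPCs 15 of the 66 rose and 7 fell, where 5.03% of all genes rose and 3.11% fell (median 0.41, against 0.03). In SUZ12-degron ESCs 9 of its 39 tested genes rose with auxin and 1 fell. Of all 15104 genes tested there, 889 rose and 142 fell (415 and 695 with median-of-ratios scaling). Named here after their values were seen, in the JARID2 line the kidney regulator Wt1 changed by 1.48 ± 0.30 and the T-box factor Tbx20 by -1.67 ± 0.13, with limma adjusted p of 0.00086 and 2.7e-09.

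In the fit without the SUZ12 NPC libraries 4 of 22 genes of the set rose with auxin in the JARID2 line, and the median difference was 0.44 over the 22 and -0.04 over all genes tested. Every JARID2 auxin library lay above every untreated one for 8 of 28 genes (14.3% of all genes tested) and below for 2, Gfra3 and Prrx1 (21.5% of all genes). Gfra3 and Prrx1 passed the filter on low values only through the SUZ12 auxin libraries that chose them. Elsewhere they reached at most 0.973 and 0.723 TPM, so no fall is read from them. Prrx1 was at 0.218, 0.291 and 0.382 TPM with auxin and 0.511, 0.646 and 0.557 without, with a limma adjusted p of 0.22. Markers moved in this line too: neuronal markers summed to 979 to 1056 TPM with auxin and 2899 to 3327 without, neural progenitor markers to 4244 to 4252 against 5834 to 5934, and pluripotency markers to 513 to 559 against 168 to 213. Epidermis sums were 761 to 882 TPM with auxin and 381 to 494 without, trophectoderm 781 to 925 and 434 to 541, and germ line 708 to 734 and 354 to 403. In the MTF2 line the neuronal sums were 3615 to 3747 TPM with auxin and 5009 to 5157 without, and the pluripotency sums 182 to 206 and 109 to 120. Its sums for smooth muscle and fibroblast were 508 to 545 with auxin and 308 to 332 without, for mesoderm 73 to 95.6 and 48.8 to 60.5, for epidermis 247 to 255 and 125 to 149, and for trophectoderm 226 to 232 and 126 to 136. The part of these markers in the changes of the set was not tested.

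**Figure D4:**
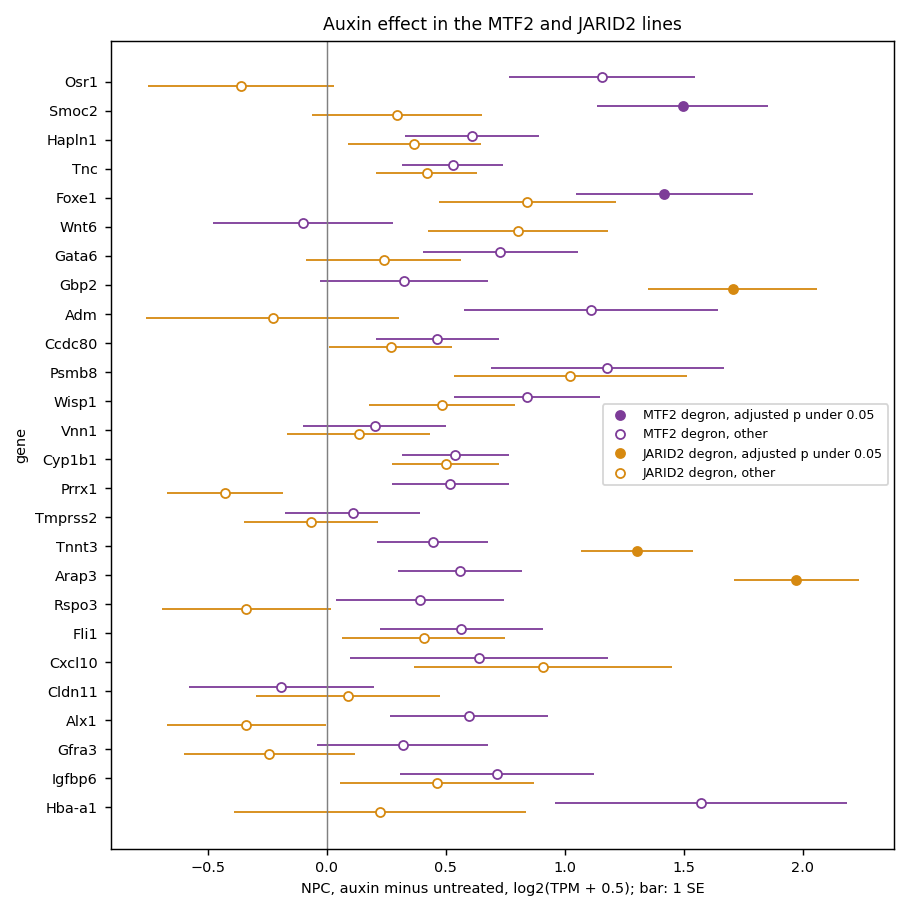
Auxin minus untreated difference of 26 of the 28 genes in NPCs on the log2(TPM + 0.5) scale with 1 SE, for the MTF2-degron (purple) and JARID2-degron (orange) lines; filled points have a limma adjusted p under 0.05. Smoc2 and Foxe1 are filled in the MTF2 line, and Arap3 (1.97), Gbp2 (1.71) and Tnnt3 (1.30) in the JARID2 line.

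The difference between the JARID2 and MTF2 effects was tested directly, because a call in 1 line and none in the other is not itself a difference. Only Arap3 passed: its JARID2 effect exceeded its MTF2 effect by 1.42 ± 0.37, with a limma adjusted p of 0.018, while its MTF2-degron NPCs held 1.27, 0.718 and 0.986 TPM with auxin and 0.469, 0.831 and 0.276 without. In this test 1.82% of all genes were higher in the JARID2 line and 7.82% lower (300 and 1288 genes; 612 and 914 with median-of-ratios scaling), and 0 of the 28 were lower. The Arap3 difference lost its call without MTF2 untreated replicate 2 (adjusted p = 0.056), with a pseudocount of 0.1 (0.14) and with voom on recovered reads (0.15). The difference was 1.38 ± 0.50 for Gbp2 (limma adjusted p = 0.089), 0.86 ± 0.33 for Tnnt3 (0.11), -1.20 ± 0.51 for Smoc2 (0.15), -0.58 ± 0.53 for Foxe1 (0.56) and -1.52 ± 0.55 for Osr1 (0.092), and none of these passed.

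Some of the set was already higher in the JARID2 line without auxin. In untreated NPCs 6 of the 28 genes were higher in the JARID2-degron line than in the MTF2-degron line at an adjusted p under 0.05 and 0 were lower, against 9.06% and 14% of all genes tested (1492 and 2311 genes; 2015 and 1847 with median-of-ratios scaling). They were Arap3 (1.65 ± 0.26 on the log2 scale, limma adjusted p = 7.1e-05), Gbp2 (1.55 ± 0.35, 0.0027), Tnnt3 (0.98 ± 0.23, 0.0040), Osr1 (1.35 ± 0.39, 0.015), Psmb8 (1.67 ± 0.49, 0.016) and Tnc (0.60 ± 0.21, 0.047). Osr1 was at 1.85, 2.86 and 2.91 TPM in untreated JARID2-degron NPCs and 0.932, 0.354 and 0.824 TPM in untreated MTF2-degron NPCs. With auxin it was at 2.28, 2.79 and 0.887 TPM in the JARID2 line, so that none of the auxin libraries exceeded the highest untreated one. Arap3, Gbp2 and Tnnt3 kept their calls on leaving out any 1 library. Osr1 lost it in 3 of 6 such fits (without JARID2 replicate 2 or 3 or MTF2 replicate 2; adjusted p 0.054 to 0.075), and Psmb8 in 4 (JARID2 replicate 2 or 3, MTF2 replicate 1 or 2; 0.061 to 0.073). Tnc lost it in the same 4 (0.082 to 0.19) and in the fit without the SUZ12 NPC libraries, and was called in 6 of 15 alternatives. Neuronal markers summed to 2899 to 3327 TPM in untreated JARID2-degron NPCs and to 5009 to 5157 TPM in untreated MTF2-degron NPCs. In the same order, the sums were 381 to 494 and 125 to 149 TPM for epidermis, 434 to 541 and 126 to 136 for trophectoderm, 354 to 403 and 182 to 221 for germ line, 168 to 213 and 109 to 120 for pluripotency, and 381 to 538 and 308 to 332 for smooth muscle and fibroblast. Their part in the line difference was not tested, and line and tag cannot be told apart.

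In ESCs the set was hardly present, with or without auxin. The selection had required a mean under 1 TPM in untreated untagged ESCs, which bears on these low levels. The highest means in untreated SUZ12-degron ESCs were 1.93 TPM for Hba-a1, 0.537 for Adm and 0.533 for Gbp2. After 12 hours of auxin its genes summed to 7.24 to 8.30 TPM in the SUZ12-degron line and to 6.51 to 7.59 TPM untreated. Of the 28, 3 (Cxcl10, Gbp2 and Hba-a1) had 1 TPM in at least 2 ESC libraries and were tested, and 0 of 3 passed in any of 5 comparisons. Gbp2 was at 0.689, 1.13 and 0.623 TPM with auxin and 0.310, 0.551 and 0.737 TPM without in the SUZ12-degron line, a difference of 0.35 ± 0.43 with a limma adjusted p of 0.68. The shares of all 15104 genes tested that passed were 6.83% for SUZ12 auxin against untreated (889 higher and 142 lower; 415 and 695 with median-of-ratios scaling), 1.09% for MTF2 and 0.298% for JARID2. For the difference of the SUZ12 effect from the MTF2 effect 0.0265% passed, and for that from the JARID2 effect 0.139%. Of the 3 genes, Cxcl10 had an unadjusted p under 0.05 in the JARID2 comparison and in the SUZ12 against JARID2 difference; by voom on recovered reads 0 passed as well. ESC and NPC samples differ in stage and in hours of auxin, so the stages are set side by side only.

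Cyp1b1, singled out after its values were seen, was the only one of the 28 in which every auxin ESC library lay above every untreated one in all 4 lines. The share of all genes that did so was not computed, and most of the set was near 0 in ESCs. For Cyp1b1 in the MTF2-degron line, the lowest auxin library and the highest untreated library held 2 reads each. In untagged ESCs it was at 0.942, 0.947 and 0.761 TPM with auxin and 0, 0.196 and 0 TPM without, or 43 and 3 reads in all. It was at 0.543, 0.893 and 0.860 TPM against 0.0813, 0.0869 and 0.0968 TPM in the SUZ12-degron line, at 0.155, 0.432 and 0.510 TPM against 0, 0.139 and 0.0818 TPM in the MTF2-degron line, and at 0.660, 0.571 and 0.215 TPM against 0.162, 0.0612 and 0.168 TPM in the JARID2-degron line. The untagged line thus had the highest mean of these levels with auxin, 0.883 TPM. CYP1B1 oxidises many small aromatic compounds and steroids, and its gene is a standard target of the aryl hydrocarbon receptor. Fitted without the filter on low values, the SUZ12 ESC difference was 1.09 ± 0.22 with a limma adjusted p of 0.0078, while that of MTF2 was 0.58 ± 0.22 (0.39) and that of JARID2 0.61 ± 0.22 (0.44). Untagged ESCs were used in the selection and have no test. In untagged NPCs Cyp1b1 was at 0.704, 0.486 and 0.258 TPM with auxin and 0.312, 0.420 and 0.628 TPM without.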

How the data were processed

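The deposited values are TPM per gene symbol and library, made by the authors. The submitters' processing notes name STAR 2.6.1d and the build mm10; for counting tool and annotation, nothing is stated in the sources used here. Libraries were strand-specific, per the labels' protocols. All 47 columns were mapped to samples by name. Low TPM values were whole multiples of 1 read, within 0.001, for 100% of the 27296 symbols above 0; the recovered reads totalled 3237115 to 8707922 per library (median 5391121), with 13018 to 14728 genes at 1 TPM or more. Read numbers carry counting error only, and are too low for a gene whose true numbers all share a common divisor.

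The 28 genes, the gene lists and the tests were chosen with earlier results of these data known. Contrasts were fitted with limma 3.58.1 in R 4.3.3 (trend and robust) on log2(TPM + 0.5), all 8 groups of a stage in 1 fit, for genes with at least 1 TPM in 2 libraries of the stage. Tests were two-sided, with Benjamini-Hochberg adjustment over all genes tested and a threshold of 0.05. All 28 genes passed this filter in NPCs, 22 of them without the SUZ12 NPC libraries. The SUZ12 NPC contrast and all untagged untreated libraries chose the genes and were not tested. Genes were named by rule: the 10 highest in SUZ12 NPCs with auxin, up to 8 called per comparison and direction, up to 4 per role, the 3 highest in certain other groups and those next to the thresholds; others are marked as chosen after their values were seen. Some genes that the rule would name are not reported here; counts and sums include them. Replicates are biological, per the series' design. In 1 simulated data set most changed genes were called, in the right direction, and false calls exceeded the nominal share, which bears on calls close to the threshold. Alternatives were pseudocounts of 0.1 and 1, no filter, a filter of 2 TPM in 3 libraries, median-of-ratios scaling, fits to fewer groups, a replicate block, voom on recovered reads, and each replicate left out.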

Additional observations from a re-analysis of the deposited data

Results flagged for a closer look

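For Arap3, the effect of auxin in NPCs differed between the JARID2-degron and MTF2-degron lines by 1.415 on the log2(TPM + 0.5) scale (limma adjusted p = 0.018, range over 21 alternatives 0.0022 to 0.15). Its 3 JARID2 auxin libraries were all above the JARID2 untreated ones, and its untreated JARID2 level was itself above the untreated MTF2 level. Groups of 2 or 3 libraries were not examined for single outlying libraries.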

How the results depend on the processing

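The number of genes in the set depended on its thresholds: 78 at 3 TPM, 9 at 10 TPM, 13 with means under 0.5 TPM and 83 with means under 2 TPM. It was 28 after median-of-ratios scaling, 26 of them shared, and 27 to 38 on leaving out 1 library. In MTF2-degron NPCs 3 genes rose; 1 did with a pseudocount of 0.1 and 1 in a fit to the compared groups only, and 2 to 4 with a replicate left out. In JARID2-degron NPCs 4 rose, and 3 to 5 over all alternatives. The JARID2 effect exceeded the MTF2 effect for 1 gene, for 0 with a pseudocount of 0.1 or voom, for 3 with a pseudocount of 1, and for 0 to 2 with a replicate left out. It was lower for 0 genes, for 1 (Prrx1) with voom, and for 0 to 1 with a replicate left out. Prrx1 passed the filter only through the SUZ12 auxin libraries that chose it. Between untreated lines 6 were higher, and 3 to 8 with a replicate left out. In SUZ12-degron ESCs 0 of 3 genes rose, and 1 of 27 (Cyp1b1) without a filter, which tests more genes. The cause of the other changes was not tested. Same replicate numbers did not pair the libraries (correlations of deviations over 0.1 in 0 of 84 ESC and 0 of 77 NPC pairs); with a replicate block 4, 4, 1 and 7 genes were higher in the 4 NPC comparisons, in the order above. No estimate of a called gene reversed. Outside the SUZ12 auxin group many values rest on a few reads per library.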
